A study of Saccharomyces cerevisiae with 6 samples.

Results

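The cell wall integrity pathway of budding yeast was followed through 10 genes, from the sensors in the plasma membrane to the transcription factor at the end of the cascade. They were the sensors WSC1, MID2 and MTL1, the kinases PKC1, BCK1, MKK1, MKK2, SLT2 and KDX1, and the transcription factor RLM1. The genes were taken by their place in the pathway, with no threshold on their values, but with earlier results of these data known. All 10 were among the 5449 S. cerevisiae genes measured. Each had 1 probe set. WSC1 is listed as SLG1 in the annotation and was matched through its synonym.

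The study compared 2 genotypes of strain JJ816 on Affymetrix arrays, with 3 cultures and 3 arrays each. Both chromosomal Hsp90 genes, HSC82 and HSP82, are deleted in all cultures, so that the only Hsp90 came from a plasmid carrying either wild-type HSC82 (WT Hsc82) or the mutant hsc82-W296A. The cultures received no other treatment, grew at 30 degrees in the rich medium YPD and were collected in exponential phase at an optical density of 0.5. The promoter of the plasmid genes is not given in the sources used here. Nor is it said there whether the cultures of a genotype came from 1 transformant or several. Each array reads a whole culture, in which fewer cells expressing a gene and less RNA per cell cannot be told apart.

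In S. cerevisiae, stretching or damage of the wall is read by transmembrane sensors whose serine- and threonine-rich outer part reaches into the wall. The sensors recruit exchange factors that load the small GTPase Rho1 with GTP, and Rho1 activates the protein kinase Pkc1. Pkc1 starts a chain of kinases, Bck1, then the redundant pair Mkk1 and Mkk2, then the MAP kinase Slt2, which is a known client of Hsp90 and phosphorylates Rlm1. Rlm1 switches on wall genes and also SLT2 and its pseudokinase paralog KDX1, which makes part of the cascade a target of its own output.

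Values are deposited log2 signals. A change is the hsc82-W296A mean less the WT Hsc82 mean of these log2 values, given with its standard error (SE) from limma and n = 3 arrays a genotype. The adjusted p-values come from limma with Benjamini-Hochberg adjustment, and the threshold was 0.05. The mutation was accompanied by wide change, with 67.3% of all genes past the threshold. The median signal of S. cerevisiae probe sets was 10.94 to 11.04 on the WT Hsc82 arrays and 11.07 to 11.13 on the hsc82-W296A arrays, and that of another species' probe sets 6.52 to 6.70 and 6.38 to 6.46. Both medians therefore move with the genotype, and changes are also given with the arrays rescaled where that matters. Probe sets of the other species also gave the background level, 8.14, below which 95 percent of their means fell. It was exceeded by 9 of the 10 genes on every array and by MTL1 on all arrays but 1.

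Of the 10 genes, 6 were higher in hsc82-W296A, against 37.1% of all genes, and 1 was lower, against 30.3%. MTL1, RLM1, MKK1, KDX1, SLT2 and MKK2 rose, MID2 fell, and WSC1, PKC1 and BCK1 did not pass. Rescaling left the 6 higher calls and added PKC1 and BCK1 to the lower ones by quantile normalization, and PKC1 by median centring. In total 7 of 10 passed in either direction, a share near the 67.3% of all genes, so the number of calls does not set the pathway apart. The genotypes did not overlap for the 6 genes that rose, against 39.5% of all genes that lay wholly higher, nor for MID2, against 34.1% wholly lower and 73.6% in either direction. The median change of the 10 was 0.41 and that of all genes 0.04, or 0.27 and -0.06 after quantile normalization. At least 2-fold rises were found for MTL1 and RLM1, where 8.9% of all genes rose as far.

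The 3 sensors went 3 ways. WSC1, a main sensor of the pathway during growth, read 11.64, 11.76 and 11.80 on the WT Hsc82 arrays and 11.70, 11.80 and 11.76 on the hsc82-W296A arrays. The groups overlapped throughout. Its change of 0.02 ± 0.058 did not pass (adjusted p = 0.795), and its sign turned when the arrays were rescaled, to -0.06 by quantile normalization, to -0.10 when arrays were centred on their medians and to -0.15 when both background and middle were matched, without passing in any of these. Leaving out WT Hsc82 replicate 1 gave -0.03 and leaving out hsc82-W296A replicate 2 gave -0.0071.

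MID2, which shares its layout with MTL1 and also senses wall stress during mating, was the only one of the 10 genes called lower in the deposited values. It read 11.86 on each WT Hsc82 array, and 11.33, 11.25 and 11.20 with hsc82-W296A. All hsc82-W296A arrays lay below all WT Hsc82 arrays. MID2 fell by 0.60 (SE 0.047, adjusted p = 6.00e-05), a level 1.51-fold lower.

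MTL1, the paralog of MID2, moved the other way and furthest of all 10. It read 7.77, 8.29 and 8.52 with WT Hsc82 and 10.48, 10.65 and 10.57 with hsc82-W296A, so every hsc82-W296A array stood clear of every WT Hsc82 array. The rise was 2.38 ± 0.179 (adjusted p = 4.86e-05), or 5.19-fold, and ranked 71 of 5449 genes by size. The WT Hsc82 mean of 8.19 ± 0.384 (SD, n = 3) sits at the background level, and replicate 1 lies below it, where signal is compressed. How large the rise is thus remains uncertain. Without that array the rise was 2.17. Under the 3 rescalings it was 2.26 to 2.39.

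**Figure D1:**
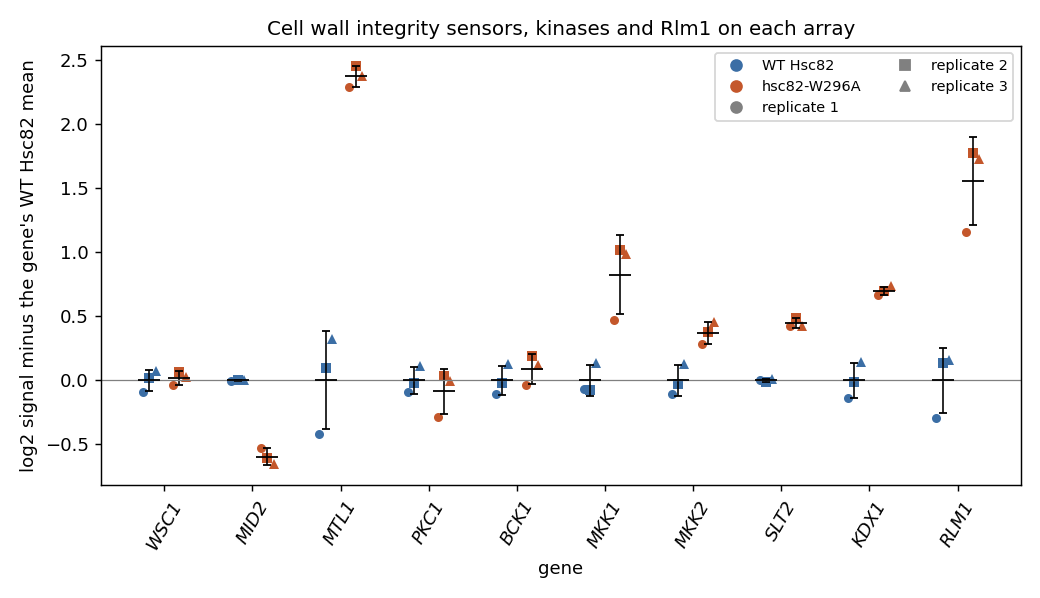
Log2 signal of each of the 10 genes on each array (y axis), with the gene's WT Hsc82 mean set to 0, for 3 WT Hsc82 and 3 hsc82-W296A arrays; symbols mark the replicate number, and black bars the mean and SD. MTL1 and RLM1 stand furthest above 0 in hsc82-W296A and MID2 lies below it, while the groups overlap for WSC1, PKC1 and BCK1.

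The top of the kinase chain showed no change beyond the spread in the deposited values. PKC1, the yeast protein kinase C, read 9.70, 9.77 and 9.91 with WT Hsc82 and 9.51, 9.83 and 9.79 with hsc82-W296A. These groups overlapped, with hsc82-W296A replicate 1 the lowest of the 6 arrays. The change was -0.09 ± 0.099 (adjusted p = 0.460). It passed as a fall of 0.40 after quantile normalization (adjusted p = 0.00174) and of 0.20 after median centring (adjusted p = 0.0387), and was 0.01 without hsc82-W296A replicate 1.

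BCK1, the kinase that Pkc1 activates, read 9.46, 9.55 and 9.69 with WT Hsc82 and 9.53, 9.76 and 9.69 with hsc82-W296A. Here too the groups overlapped. The change of 0.09 ± 0.083 did not pass (adjusted p = 0.360). After quantile normalization it was -0.24 and passed (adjusted p = 0.00456), and after median centring it was -0.03 and did not.

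Both kinases of the next step were higher. MKK1 read 9.28, 9.28 and 9.49 with WT Hsc82 and 9.82, 10.37 and 10.33 with hsc82-W296A. The groups did not overlap, although hsc82-W296A replicate 1 was well below the other two arrays of that genotype. MKK1 rose by 0.83 ± 0.152 (adjusted p = 0.00277), or 1.77-fold. The rise was 0.52 after quantile normalization and still passed.

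MKK2, which can stand in for MKK1, rose less. Its signal was 9.97, 10.05 and 10.21 with WT Hsc82 and 10.36, 10.45 and 10.53 with hsc82-W296A, again without overlap. The rise of 0.37 ± 0.076 passed (adjusted p = 0.00441). It was 0.14 after quantile normalization, where it still passed, and 0.36 without replicate 2 of both genotypes, where it did not (adjusted p = 0.0610).

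SLT2, the MAP kinase, was steady within each genotype and higher in hsc82-W296A. It read 12.12, 12.11 and 12.13 with WT Hsc82 and 12.54, 12.61 and 12.54 with hsc82-W296A, so that the gap between the genotypes was far wider than the spread within either. SLT2 rose by 0.45 ± 0.041 (adjusted p = 0.000116), or 1.36-fold. With background and middle matched the rise was 0.24 and still passed. These are transcript levels, and the arrays hold no measure of the amount or phosphorylation of the Slt2 protein.

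KDX1, also called MLP1, encodes a pseudokinase paralog of Slt2 that binds Rlm1. It read 10.38, 10.51 and 10.66 with WT Hsc82 and 11.18, 11.21 and 11.25 with hsc82-W296A, with no overlap. KDX1 rose by 0.70 ± 0.074 (adjusted p = 0.000205) and by 0.58 to 0.60 under the 3 rescalings.

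RLM1, the MADS-box transcription factor that Slt2 phosphorylates, rose furthest of the 10 after MTL1, and from a level above background. It read 9.28, 9.71 and 9.73 with WT Hsc82 and 10.73, 11.35 and 11.30 with hsc82-W296A. No arrays overlapped, and replicate 1 was the lowest array in both genotypes. The rise of 1.56 ± 0.195 (adjusted p = 0.000452), or 2.94-fold, ranked 214 of 5449 genes. It was 1.35 to 1.49 under the 3 rescalings and 1.41 to 1.75 when arrays were left out.

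Replicate 1 was the lowest array of its genotype for 8 of the 10 genes in WT Hsc82 and for 8 of 10 in hsc82-W296A. The median of S. cerevisiae probe sets was also lowest on these arrays, at 10.94 and 11.07. Its part in the spread was not tested. Without replicate 1 of both genotypes, 6 of the 10 genes were higher and 1 lower, as with all arrays.

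**Figure D2:**
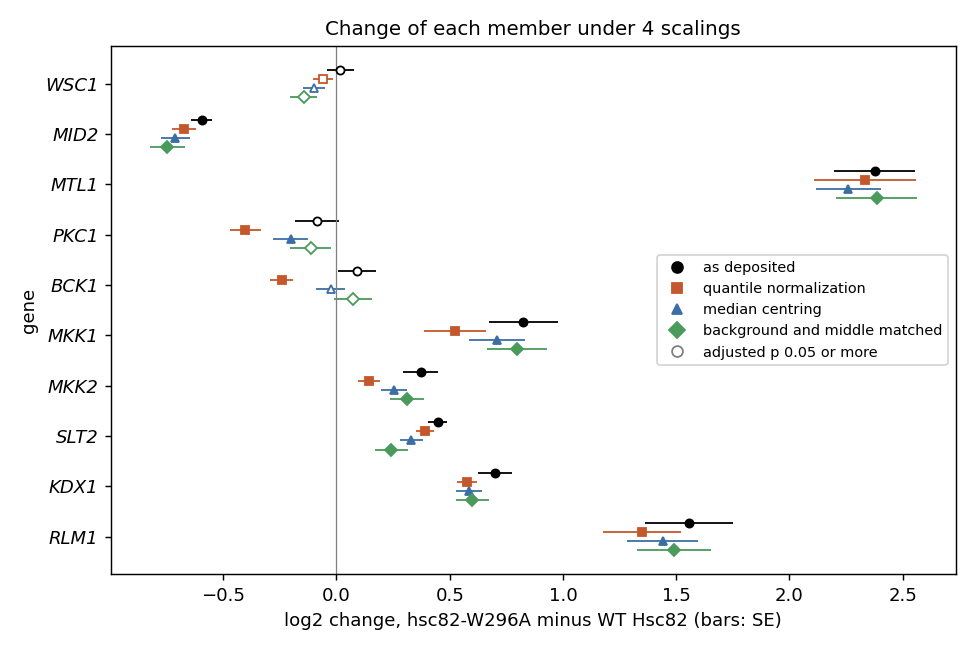
Change of each of the 10 genes (x axis, log2, hsc82-W296A minus WT Hsc82, bars are SE) as deposited and under 3 rescalings; open symbols did not pass the threshold. MTL1, RLM1, MKK1, KDX1, SLT2 and MKK2 lie above 0 under each scaling and MID2 below it, whereas PKC1 and BCK1 pass as lower only under some rescalings.

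The pathway holds 3 pairs of related genes, and the change was compared within each pair by the difference between both genes on the same array. The rise of MTL1 exceeded the change of MID2 by 2.97 ± 0.185 (SE from both fits). The difference was 0.45 ± 0.17 for MKK1 over MKK2 and 0.25 ± 0.085 for KDX1 over SLT2. These SEs leave out that both genes were read on the same array. The SE of the within-array differences was 0.233 for MTL1 over MID2, 0.140 for MKK1 over MKK2 and 0.0825 for KDX1 over SLT2. In each of the 3 pairs the within-array differences of the genotypes did not overlap, and the exact permutation test, two-sided, returned p = 0.1 (0.1 after adjustment over 3 pairs), the smallest that 3 against 3 arrays allow. The threshold therefore could not be reached. For KDX1 over SLT2 the difference ranged from 0.19 after quantile normalization to 0.36 with background and middle matched.

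The 3 remaining sensors of the Wsc family were all higher, against 37.1% of all genes. WSC2 rose by 0.53 ± 0.122 (adjusted p = 0.00753) and WSC3 by 0.76 ± 0.095 (adjusted p = 0.000440). WSC4 went from 7.87 ± 0.264 (SD, n = 3), below background, to 9.15 ± 0.194, a rise of 1.28 ± 0.151 whose size is therefore uncertain. The rises were 0.33, 0.43 and 1.20 after quantile normalization and all passed, but without replicate 2 of both genotypes the WSC2 rise of 0.41 did not (adjusted p = 0.0859). With WSC1, MID2 and MTL1, 5 of 6 sensor genes passed in either direction, against 67.3% of all genes.

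The Rho1 module between the sensors and Pkc1 was mixed, with 3 of 10 genes higher and 1 lower, against 37.1% and 30.3% of all genes. Its median of 0.07 was -0.12 after quantile normalization, -0.05 on centred arrays and 0.0042 on arrays matched in background and middle. ROM1, a Rho1 exchange factor, rose from 8.53 ± 0.284 to 10.24 ± 0.167 (SD, n = 3), a change of 1.71 ± 0.152 (adjusted p = 9.65e-05). On WT Hsc82 replicate 1 ROM1 read 8.23, close to background. ROM2, its paralog, stood at 0.14 ± 0.10 and did not pass (adjusted p = 0.238), though it did with the replicate block (adjusted p = 0.0379). BAG7, a GTPase-activating protein for Rho1 and an Rlm1 target, rose by 2.33 ± 0.079 (adjusted p = 2.42e-06) from 7.72, below background, so this size is uncertain.

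The other activating proteins SAC7 and LRG1 stood at 0.05 and 0.06 without passing, as did the exchange factor TUS1 at 0.08 and ACK1, a positive regulator upstream of Rho1, at 0.05. BEM2, a further activating protein, stood at -0.22 (adjusted p = 0.0727), and passed as lower with the replicate block (adjusted p = 0.00521), under each of the 3 rescalings and without WT Hsc82 replicate 1 (-0.30, adjusted p = 0.0225). After quantile normalization TUS1 was -0.27 and passed as lower. SAC7 passed as higher, at 0.17, without hsc82-W296A replicate 1 (adjusted p = 0.0432). ZEO1, whose product binds Mid2, fell by 0.24 (SE 0.042, adjusted p = 0.00212), like MID2 itself, and by 0.59 with background and middle matched. RHO1, the GTPase, rose by 0.15 ± 0.038 (adjusted p = 0.0124). That direction depends on the scaling, since RHO1 stood at 0.03 on centred arrays and at -0.17 on arrays matched in background and middle, neither past the threshold. It also lost its call without replicate 2 or 3 of both genotypes (0.15 each).

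PKH1 and PKH2, which encode the kinases that phosphorylate the activation loop of Pkc1, both rose, where 37.1% of all genes were higher. PKH1 went up by 1.02 ± 0.131 (adjusted p = 0.000499) and PKH2 by 1.06 ± 0.16 (adjusted p = 0.00108). PKC1 itself, their substrate, was not called in the deposited values.

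Among 5 phosphatases that act on Slt2 or on this cascade, 4 were called higher and 1 lower, against 37.1% and 30.3% of all genes. Under each of the 3 rescalings 2 were higher and 1 lower. PTP2, a tyrosine phosphatase that inactivates Slt2 and Hog1 and is a target of Rlm1, rose by 1.42 ± 0.104 (adjusted p = 4.39e-05). SDP1, a stress-inducible phosphatase with preference for Slt2, rose by 1.19 ± 0.120 (adjusted p = 0.000165) from 8.73. PTC1, a type 2C phosphatase, fell by 0.33 (SE 0.044, adjusted p = 0.000663).

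The other two phosphatase calls were marginal. MSG5, a dual-specificity phosphatase, stood at 0.215 (adjusted p = 0.0332) and PTP3, a tyrosine phosphatase, at 0.222 (adjusted p = 0.0467), and neither passed under any of the 3 rescalings. MSG5 lost its call without WT Hsc82 replicate 1 (0.20) or 2 (0.18) and without hsc82-W296A replicate 2 (0.21) or 3 (0.16). PTP3 lost it without WT Hsc82 replicate 1, 2 or 3 (0.23, 0.21 and 0.23) and without hsc82-W296A replicate 2 or 3 (0.18 each).

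Of 8 partners and further effectors of Slt2, 3 were called higher and 2 lower, shares near the 37.1% and 30.3% of all genes. ASK10, a regulator of the glycerol channel Fps1 that Slt2 phosphorylates, rose by 0.51 ± 0.117 (adjusted p = 0.00744), and the call ended without replicate 2 or 3 of both genotypes (0.43 and 0.46). Its paralog RGC1 stood at 0.39 (adjusted p = 0.0215) and was not called after quantile normalization, nor without WT Hsc82 replicate 1 or 2 (0.34 and 0.38) or hsc82-W296A replicate 2 or 3 (0.29 and 0.38). SWI6, the subunit of the SBF transcription factor that Slt2 phosphorylates, stood at 0.35 (adjusted p = 0.0194), was 0.08 and not called after quantile normalization, and lost its call without hsc82-W296A replicate 2 or 3 (0.32 each).

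SWI4, the DNA-binding subunit of SBF, did not pass at 0.22 (adjusted p = 0.141). SMI1, which encodes a protein that links Slt2 to wall synthesis, fell by 0.28 (adjusted p = 0.00176), and by 0.44 on arrays matched in background and middle. MID1, a subunit of the plasma membrane calcium channel, fell by 0.38 (adjusted p = 0.00537), or by 0.57 after quantile normalization, while its partner CCH1 and the polarity scaffold SPA2 stood at 0.01 and 0.11 without passing, and were called lower after quantile normalization, at -0.24 and -0.17.

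**Figure D3:**
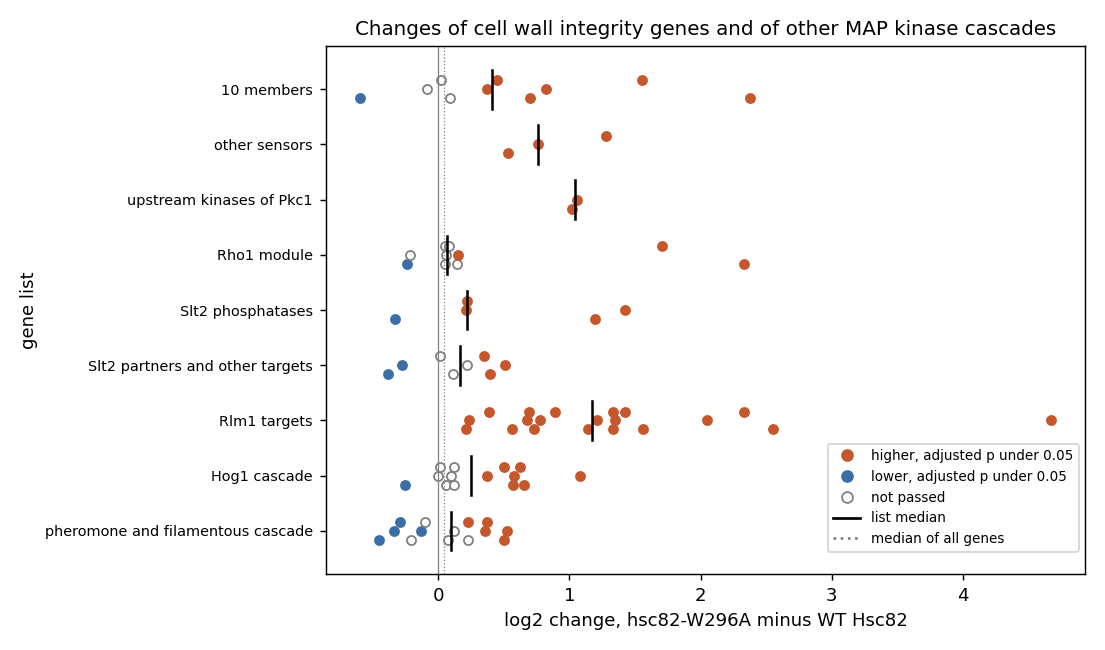
Change of each gene (x axis, log2, hsc82-W296A minus WT Hsc82) in the 10 genes of the pathway, in lists of further pathway genes and in the Hog1 and pheromone cascades; black lines are list medians and the dotted line is the median of all genes, 0.04. The 20 genes listed as Rlm1 targets lie above 0, with a median of 1.18. The Rho1 module and the pheromone cascade have calls in both directions.

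The genes listed as Rlm1 targets were higher as a group. Which factor controls each of them, GSC2 included, was not tested. Apart from SLT2 and KDX1, the list held 23 genes, BAG7 and PTP2 among them, and 20 could be matched to a probe set. All 20 passed as higher in the deposited values, against 37.1% of all genes, 11 of them at least 2-fold, against 8.9%, with a median change of 1.18. The list was chosen with earlier results of these data known, so these counts describe it and are not an independent test. NCW2, TOH1 and YMR295C were not analysed here. The number called higher was 19 after quantile normalization and 18 when arrays were centred or their background and middle matched.

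GSC2, also called FKS2, encodes the inducible catalytic subunit of the glucan synthase and is a classical readout of the pathway. It read 9.69, 10.07 and 10.15 with WT Hsc82 and 12.33, 12.48 and 12.74 with hsc82-W296A. The groups were far apart, with a rise of 2.55 ± 0.148 (adjusted p = 1.84e-05), or 5.86-fold. Its constitutive counterpart FKS1 stood at 0.21 ± 0.061 (adjusted p = 0.0201) and did not pass under any rescaling, being -0.07 with background and middle matched, nor without WT Hsc82 replicate 1 or 2 (0.17 and 0.22) or hsc82-W296A replicate 2 or 3 (0.19 and 0.18).

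The list holds 4 genes of covalently linked wall proteins with internal repeats. PIR3 rose from 9.01 ± 0.390 to 13.68 ± 0.101 (SD, n = 3), by 4.67, the highest rank of all 5449 genes. HSP150, another protein of this family, went up by 2.05 ± 0.125, CIS3 by 1.21 ± 0.081 and PIR1 by 1.14 ± 0.079 (adjusted p = 2.24e-05, 3.10e-05 and 3.45e-05).

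Genes of proteins anchored in the wall or membrane through a glycolipid rose too. PST1 rose by 1.56 ± 0.042 (adjusted p = 1.15e-06), CWP1 by 0.69, SED1 by 0.68 and CCW14 by 0.56. The last 3 rises were 0.44, 0.33 and 0.25 on arrays matched in background and middle, and still passed. The enzyme genes CRH1, which links chitin to glucan, and DFG5, which is needed to attach anchored proteins, rose by 0.78 and 0.89. CHS3, a chitin synthase, rose by 0.39, or 0.20 on matched arrays, and was not called, at 0.35, without replicate 2 of both genotypes (adjusted p = 0.0534). BGL2, a glucan-remodelling enzyme, was called at 0.23 but not when arrays were centred (0.12) or matched in background and middle (-0.10).

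Other genes of the list rose as well. CRG1, a methyltransferase, rose by 1.35 ± 0.058 and FLC2, a membrane protein, by 0.73 ± 0.054. PRM5, a membrane protein induced by wall stress, and its paralog YNL058C rose by 1.34 ± 0.091 and 1.34 ± 0.076 (adjusted p = 3.33e-05 and 1.65e-05).

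**Figure D4:**
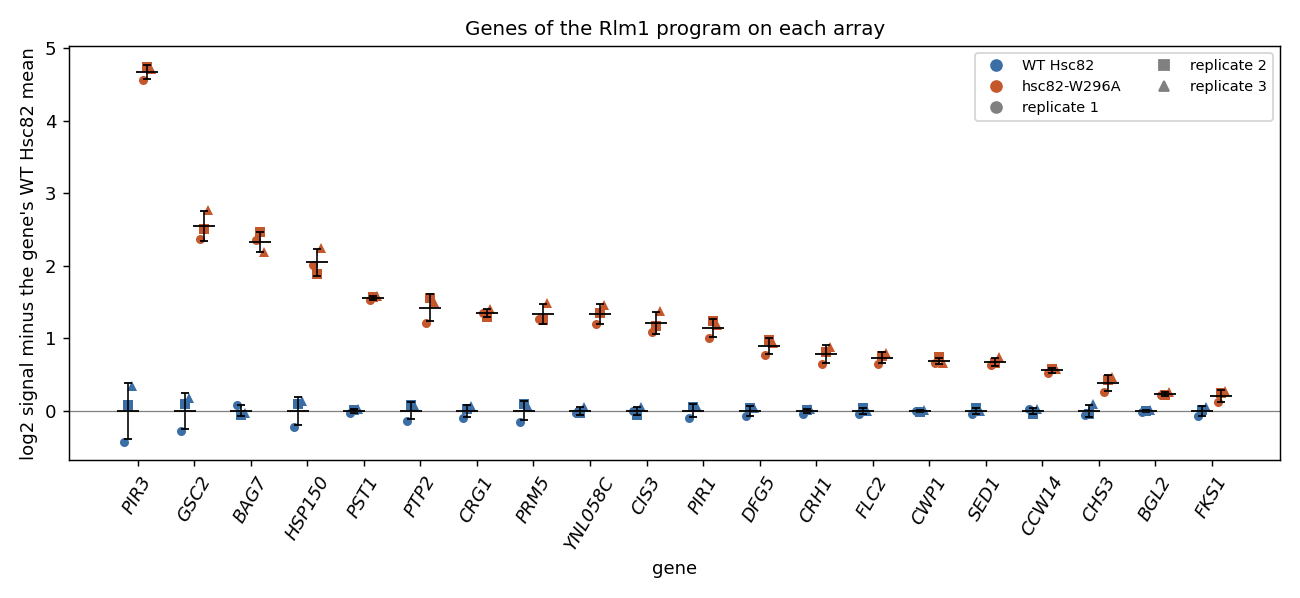
Log2 signal of 20 genes listed as Rlm1 targets on each array (y axis), with the gene's WT Hsc82 mean set to 0. Genes are ordered by their change. Symbols mark the replicate number, and black bars the mean and SD. All hsc82-W296A arrays lie above all WT Hsc82 arrays for each of the 20 genes, from PIR3 at 4.67 to FKS1 at 0.21.

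Outside the pathway, general stress genes controlled by Msn2 and Msn4 moved in the same samples, with 20 of 20 listed genes higher, against 37.1% of all genes, and a median of 2.24. This list too was chosen with earlier results of these data known, so its count is not an independent test. SPI1, a wall protein of that list, rose by 2.49, ALD3 by 3.24, MSC1 by 2.94 and GPX1 by 2.03. The part of this general response in the rises of the listed Rlm1 targets and of MTL1 and RLM1 was not tested.

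Other MAP kinase cascades gave a measure for the kinase genes. In the Hog1 cascade 7 of 14 genes were higher and 1 lower, against 37.1% and 30.3% of all genes. The median of 0.25 was 0.11 after quantile normalization and 0.13 on centred arrays. SSK1, a response regulator, rose by 1.08 ± 0.108 (adjusted p = 0.000158), and the mucin-like sensors HKR1 and MSB2 rose by 0.62 and 0.58, whereas HOG1, the MAP kinase, stood at 0.0014 without passing and at -0.23, past the threshold, with background and middle matched. After quantile normalization 6 genes of this cascade were higher and 4 lower. In the pheromone and filamentous growth cascade 5 of 14 were higher and 4 lower, near the shares of all genes, with a median of 0.10 that turned to -0.03 after quantile normalization, where 3 were higher and 6 lower. Without WT Hsc82 replicate 2 or replicate 3, only 2 of these genes were lower. TEC1, a transcription factor of filamentous growth, rose by 0.52 ± 0.063 (adjusted p = 0.000369), and KSS1, its MAP kinase, fell by 0.34 (SE 0.053, adjusted p = 0.00129). These lists share STE20, STE50 and STE11 and were not tested against the cell wall pathway, so no difference between the cascades is shown. The values for the MAP kinases side by side are 0.45 for SLT2, 0.0014 for HOG1, -0.21 for FUS3 and -0.34 for KSS1, as deposited. After quantile normalization they are 0.39, -0.04, -0.36 and -0.54. FUS3 did not pass as deposited and was called lower after quantile normalization.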

How the data were processed

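Total RNA of 6 cultures was labelled as biotinylated cRNA, 1 Affymetrix array per culture. The authors deposited log2 signals, as judged from their range. Limma is named in the submitters' processing notes, without its role. How background was corrected and arrays normalized is not given in the sources used here. Of 10928 probe sets, 5498 belong to 5449 S. cerevisiae genes (names of assembly R64) and 1746 to another species. A gene was represented by its brightest probe set.

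All 5498 probe sets were fitted with limma 3.58.1 in R 4.3.3, with no block. Paralog pairs were compared by exact permutation. Tables and figures used Python 3.11.15, pandas 2.3.3, numpy 2.4.6 and matplotlib 3.10.9. The fit was also run on simulated arrays with independent noise and few changed probe sets. That setting differs from these data, where most genes passed and medians moved with the genotype, so it does not check the calls made here.

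The 10 genes and the lists were chosen with earlier results of these data known. All 10, any gene of the cell wall lists and up to 4 genes of each other list with the smallest adjusted p could be named. HOG1 and FUS3 were added after their values were seen. Also outside this rule, STE20 and STE11 were named as shared between lists, and SSK2 and STE5 for calls changed by the replicate block. Markers of both mating types were planned as counts and ranges but were each named, MFA2 and STE6 included. Replicate numbers are shared between genotypes. Same-numbered arrays deviated together from their group means, with correlations of 0.405, 0.148 and 0.364, all above 0.1. WT Hsc82 replicate 2 with hsc82-W296A replicate 3 (0.139) and 3 with 2 (0.107) also exceeded it, so pair 2 is weakly set apart. The pairing used for the block rests on this check, since no label states it. The labels call the samples biological replicates.

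Alternatives were quantile normalization, median centring of the S. cerevisiae probe sets, a linear rescaling that gives all arrays the same medians over the probe sets of each species (background and middle matched), leaving out dim probe sets, an intensity trend, the replicate block and leaving out each array. Leaving out both arrays of a replicate number was added after seeing the data. Arrays have no depth, and their number and the signal over background limit the precision.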

Additional observations from a re-analysis of the deposited data

How the results depend on the processing

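Of the 10 genes, 6 were called higher under each alternative except without replicate 2 of both genotypes, where 5 were. As deposited 1 was called lower. Quantile normalization gave 3 and median centring 2, where 41.4% and 42.3% of all genes were lower, and the other alternatives gave 1. MID2, MTL1, MKK1, SLT2, KDX1 and RLM1 kept direction and call in each of 15 alternatives. The replicate block changed no call among the 10 genes, with SLT2 at 0.45, and among all 111 listed genes it changed those of ROM2, BEM2, SSK2, STE5 and FUS3. The change of WSC1 was -0.060 by quantile normalization, -0.10 when centred and -0.15 with both background and middle matched, and ranged from -0.028 to 0.053 when arrays were left out. For PKC1 that range was -0.16 to 0.014. BCK1 stood at -0.24 after quantile normalization and -0.025 after median centring. The cause was not tested. Of the 46 other genes of the pathway, 33 were higher and 4 lower as deposited, against 37.1% and 30.3% of all genes. After quantile normalization 28 were higher and 8 lower, against 31.0% and 41.4%. Without the 20 listed Rlm1 targets, 13 of 26 were higher and 4 lower as deposited, with a median of 0.18. After quantile normalization 9 of these 26 were higher and 8 lower, with a median of -0.03. Of all genes 2019 were higher and 1650 lower as deposited, 1691 and 2254 after quantile normalization, 1702 and 2304 after centring, and 1744 and 2210 after matching. Over all genes the median change moved from 0.04 to -0.06 by quantile normalization, to -0.07 by centring and to -0.06 by matching. No gene of the 10 had a second probe set, so that alternative was not run. Signal near background limits the size of the changes of MTL1, WSC4, BAG7, MF(ALPHA)1 and STE3. ROM1, SDP1 and SAG1 also lay close to it in WT Hsc82, with lowest arrays at 8.23, 8.48 and 8.235.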

Other observations

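The labels name no mating type, so markers of both were read. The 6 genes of MATa cells lay above the background level of 8.14 on each array, with group means from 11.51 to 14.07. Of them AGA2, a subunit of a-agglutinin, rose by 0.98 ± 0.065 (adjusted p = 3.02e-05 by limma), STE2 and BAR1 fell by 0.21 and 0.23 (not called without replicate 2 of both genotypes, at -0.23 and -0.22), and MFA2 and STE6 did not pass as deposited. STE6 was called lower under each of the 3 rescalings (-0.19 to -0.25), and MFA2 with background and middle matched (-0.28). MFA1 stood at 0.32 (adjusted p = 0.0385) and was not called under the 3 rescalings, nor without WT Hsc82 replicate 2 or 3 (0.28 and 0.23) or without hsc82-W296A replicate 1, 2 or 3 (0.33, 0.29 and 0.32). Of the 4 genes of MATalpha cells, MF(ALPHA)1 and STE3 were at 7.60 and 7.90 in WT Hsc82, below background, and at 9.46 and 9.05 in hsc82-W296A. SAG1 went from 8.37 to 8.99, a rise of 0.62 ± 0.109, and MF(ALPHA)2 stayed at 7.31 and 7.30 as deposited, below background. After quantile normalization MF(ALPHA)2 was called higher, at 0.18 (adjusted p = 0.0369 by limma). Rescaled to matched background and middle, STE2, the pheromone receptor of MATa cells, stood at -0.49.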
